A study of Homo sapiens with 12 samples.

Results

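The genes of the proteasome, its activators and its assembly factors were followed in C4-2 cells, an established human prostate cancer line derived from LNCaP, after inhibition of the kinase PBK. Members were the protein-coding genes with a symbol of PSM, a letter from A to G and a number, together with POMP, which gave 49 genes. Of these, 48 were matched to 1 of the 54127 gene rows of the files, and PSMB3 was not analysed here. RNAseq compared DMSO, the vehicle control, with PBKi, the PBK inhibitor HI-TOPK-032 used at 1 µM for 6 h, with 6 libraries in each condition. Both conditions used the same cells in RPMI medium with serum, with no genetic change, so the comparison rests on 1 cell line, 1 compound, 1 dose and 1 time. The labels name flow-sorted cells as the source of the RNA and do not describe the sort, and nothing says that the replicates were separate cultures, so p-values measure the spread between these libraries, which may be technical.

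Depth was 9663203 to 28029908 reads on genes per library in DMSO and 13122415 to 22817803 in PBKi, and DMSO replicate 5 was counted from 3 lanes where the others had 4. Expression is given as CPM, the read count of a gene relative to all reads of its library, scaled by TMM factors, and log2 fold changes are for PBKi against DMSO from the quasi-likelihood test of edgeR. Calls are genes with an adjusted p under 0.05 after Benjamini-Hochberg adjustment over all 14505 genes tested, and the median log2 fold change of those genes was -0.01. All 6 prostate epithelium markers were expressed (summed level 3830 to 4390 CPM in DMSO and 1880 to 2630 CPM in PBKi, with 1 called up and 3 called down), and the fall in the sum followed that of KLK3, an androgen-regulated secreted protease (log2 fold change -1.39). The 7 immune markers summed to 0.623 to 1.12 CPM in DMSO and 0.751 to 1.48 CPM in PBKi, none had enough counts for the test, and MS4A1 was at 0 in all libraries. LYZ, one of these, was at 0 in all DMSO libraries and had 1 to 6 counts in each PBKi library. The stroma and endothelium markers (4 of 5 measured) summed to 17.8 to 23.4 CPM in DMSO and 16.8 to 21.6 CPM in PBKi, nearly all of it COL1A1.

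The proteasome degrades proteins tagged with ubiquitin. Its core particle is a barrel of stacked rings, with alpha subunits (PSMA genes) forming the outer rings that control entry and beta subunits (PSMB genes) forming the inner rings, where PSMB5, PSMB6 and PSMB7 carry the peptidase activities. The regulatory particle that caps the core recognises, unfolds and feeds in substrates by means of a base of ATPases (PSMC genes) with scaffold and ubiquitin-binding subunits, and a lid (PSMD genes) that removes ubiquitin. In cells exposed to interferon, and constitutively in many immune cells, PSMB8, PSMB9 and PSMB10 replace PSMB5, PSMB6 and PSMB7 in newly made cores, forming the immunoproteasome, which favours peptides suited to MHC class I.

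Most proteasome genes moved little with PBKi. Of the 48 genes, 45 had enough counts for the test (at least 10 in at least 6 libraries), 10 were called up and 3 down, and 32 were not called. Among all genes tested 41.7% were called, 20.1% up and 21.5% down, against 28.9%, 22.2% and 6.67% of the tested proteasome genes. A covariate for replicates 1 to 3 against 4 to 6, added after seeing the data, gave 15 proteasome genes up and 7 down. The share of all genes called in that fit is not given here, so the comparison holds for the fit without a covariate. The median log2 fold change of the 45 genes was 0.02, from -0.37 to 0.59, with 27 above 0 and 18 below. A call with a log2 change of at least 0.5 in size was made for 13.1% of all genes and for 1 proteasome gene, PSMB8. That gene had few counts and passed the count filter through its PBKi libraries, so its call is weak. It was not called without the filter (adjusted p = 0.112 from edgeR). With PSMB8, PSMB9 and PSMB10 set aside, 9 of 43 tested genes were called up (20.9%) and 3 down (6.98%). Every PBKi library lay above every DMSO library for 3 genes (PSMD8, PSMD12 and PSMD1), compared with 10.5% of all genes, and below for 1 (PSMG2), compared with 9.68%. In bulk RNA, fewer cells expressing a gene and less RNA per cell cannot be told apart.

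The genes not tested were PSMA8, a testis-restricted alpha subunit with 0 counts in every library, PSMB11, the thymus-restricted beta subunit with 1 count in all 12 libraries together, and PSMB9, described with the immunoproteasome. Calls rested on small differences. With any 1 library left out in turn, 6 of the 13 calls were kept in all 12 fits (PSMD8, PSMD12, PSMD9, PSMD1, PSMF1 and PSMG2). The other 7 were lost at least once. The count called up fell to 6 without PBKi replicate 2 and to 5 without PBKi replicate 3, and the count called down fell to 1 without DMSO replicate 1 or DMSO replicate 3 and rose to 6 without DMSO replicate 5 and 7 without DMSO replicate 6. PBKi replicates 3 and 6 had the largest shares of reads outside annotated genes (9.30% and 8.83%, against 5.74% to 6.97% in the other libraries). With both left out, an alternative chosen after seeing the data, PSMD8, PSMD12 and PSMD1 were called up and PSMG2 down, while 30.4% of all genes were called.

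**Figure D1:**
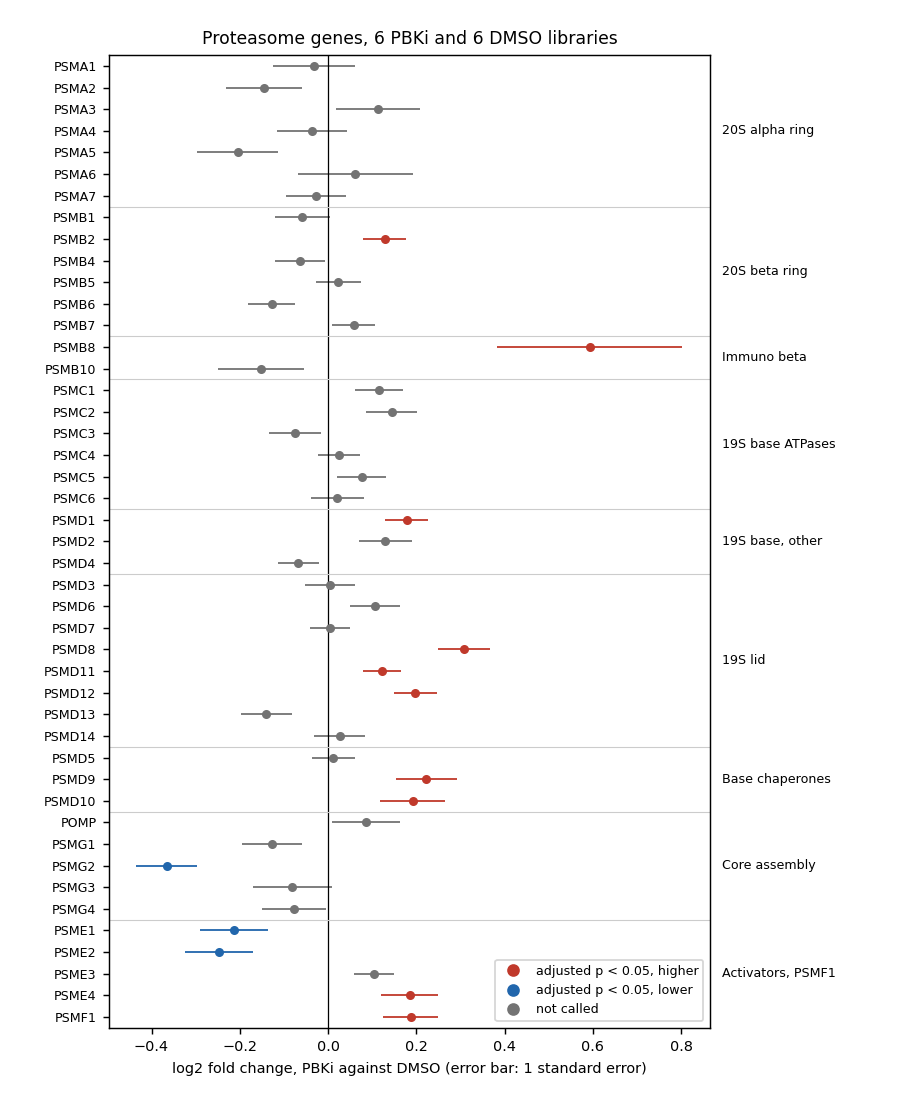
Log2 fold change of PBKi against DMSO (x axis) for the 45 proteasome genes tested (y axis, grouped by role), with bars of 1 standard error and colours marking adjusted p under 0.05. The alpha ring and the ATPases hold no called gene, PSMB8 stands furthest to the right with the widest bar, and PSMG2 furthest to the left.

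Subunits of the constitutive core particle were nearly level. None of the 7 alpha ring genes was called, and their log2 fold changes ran from -0.21 (PSMA5) to 0.11 (PSMA3), with a median of -0.03. Of the 6 constitutive beta ring genes with values, PSMB2, a non-catalytic subunit, was called up (164 ± 9.8 CPM in DMSO and 179 ± 5.72 in PBKi, SD, n = 6, log2 fold change 0.13, adjusted p = 0.0435), a call lost when any of 6 libraries was left out. Summed over the 13 core genes and scaled to exon length, the core particle stood at 834 ± 65.8 CPM per kb in DMSO and 820 ± 39.8 in PBKi (SD, n = 6).

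None of the 3 peptidase subunits was called. PSMB5, the chymotrypsin-like subunit, lay between 112.6 and 131.1 CPM in DMSO (median 125.9) and between 118.8 and 131.9 in PBKi (median 125.8). Its ranges overlapped almost completely (log2 fold change 0.02, adjusted p = 0.749), and the 95% interval of the change ran from -0.08 to 0.12. PSMB6, the caspase-like subunit, lay between 105.6 and 126.4 CPM in DMSO (median 117) and between 102.8 and 116.3 in PBKi (median 106.4), a log2 fold change of -0.13 that was not called (adjusted p = 0.0639, interval -0.23 to -0.02). It was called with DESeq2 (adjusted p = 0.048), with the replicate block (adjusted p = 0.0316) and with a covariate for the replicate sets (adjusted p = 0.0443). PSMB7, the trypsin-like subunit, lay between 136.8 and 159.9 CPM in DMSO (median 145.8) and between 142.8 and 160.5 in PBKi (median 153.2), with a log2 fold change of 0.06 (adjusted p = 0.363).

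Core subunits are made in similar amounts as protein, and their transcript values per kb of exon spanned a wide range. In DMSO the mean level per kb of exon was 170 CPM for PSMA7, 138 for PSMB4, 89.5 for PSMB1, and 82.2, 81.3 and 79.9 for PSMB7, PSMB6 and PSMB5, whose ranges overlapped. It was 2.12 for PSMA2 and 0.980 for PSMA6. PSMA2 and PSMA6 share 29.7% and 14.1% of their exon bases with other annotated genes, and each has 3 annotated pseudogenes. Reads that could not be assigned to 1 gene or 1 place would be missing from these values. PSMA1, which shares 26.7%, stood at 21.4. The exon lengths used also enter these values, at 8378 bases for PSMA2 and 6506 for PSMA6, against 1752 for PSMA7. What set the low values was not tested. The strand setting of the counting is not given in the sources used here.

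**Figure D2:**
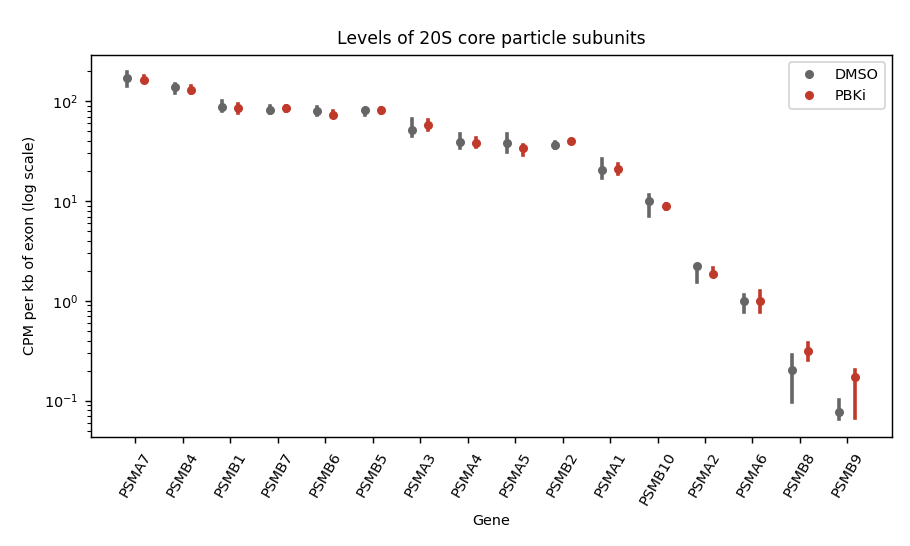
Level of the core particle genes in CPM per kb of exon (y axis, log scale) by gene, in order of the DMSO mean. Points are medians and bars the range over 6 libraries of DMSO (grey) and PBKi (red), and PSMB8 and PSMB9 stand lowest of the genes plotted, under PSMA2 and PSMA6.

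Of the 17 genes of the regulatory particle, 4 were called up and none down. That is 23.5% up, near the 20.1% of all genes called up. Of the 17, 14 had a log2 fold change above 0, and the median was 0.08. A further 3 had an unadjusted p under 0.05 in the same edgeR test and were not called, PSMC2 and PSMD2 with values above 0 and PSMD13 with one below. PSMD8, a lid subunit, changed the most. It lay between 184.6 and 230.4 CPM in DMSO (median 212.1) and between 240.3 and 280 in PBKi (median 264.3), with no overlap. On the log2 scale the rise was 0.31 with a standard error of 0.059 (adjusted p = 0.000478). It was also called from replicates 1 to 3 alone (0.31) and from replicates 4 to 6 alone (0.31).

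PSMD12, another lid subunit, lay between 173.1 and 200.3 CPM in DMSO (median 190.8) and between 210.5 and 223.3 in PBKi (median 217), again with no overlap (log2 fold change 0.20, standard error 0.048, adjusted p = 0.00287). PSMD11, a lid scaffold subunit, was called with a smaller change of 0.12 (adjusted p = 0.0313), which was lost without any one of PBKi replicates 1 to 4. The other 5 lid genes were not called, among them PSMD14, the deubiquitinase of the lid (0.03), and PSMD13 (-0.14, adjusted p = 0.0606).

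In the base, PSMD1, one of its large scaffold subunits, rose from 198 ± 10.4 to 224 ± 7.42 CPM (SD, n = 6, log2 fold change 0.18, adjusted p = 0.00601). Its partner PSMD2 showed a change of 0.13 that was not called (adjusted p = 0.0998), and PSMD4, a ubiquitin receptor, one of -0.07. None of the 6 ATPases was called. PSMC2 came nearest (0.14, adjusted p = 0.0507), and PSMC1 (0.12) shares 76.1% of its exon bases with NRDE2 and has 13 annotated pseudogenes, so its counts are uncertain. Summed per kb over the 17 genes, the regulatory particle stood between 678.7 and 757.2 CPM in DMSO (median 730.3) and between 733.6 and 776.4 in PBKi (median 754.2).

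**Figure D3:**
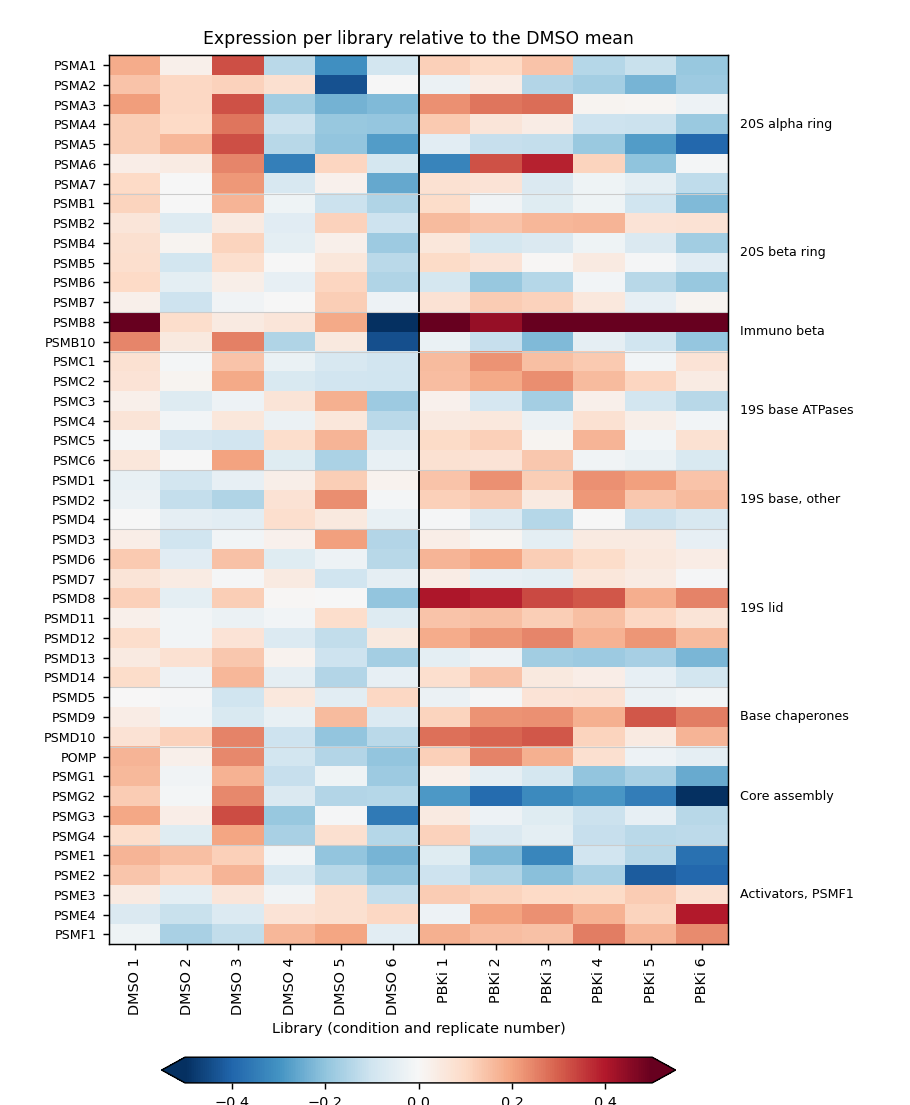
Expression of the 45 tested genes (rows, grouped by role) in each of the 12 libraries (columns), as log2 CPM minus the mean log2 CPM of the DMSO libraries, with the colour scale limited to 0.5 either way. PSMD8, PSMD12, PSMD1 and PSMG2 differ between the conditions in every library, and most alpha ring rows differ between replicates 1 to 3 and 4 to 6 within each condition.

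Among assembly factors, 2 of 3 base chaperones were called up (20.1% of all genes were). In the core assembly group 1 of 5 was called down (21.5% of all genes were). Base assembly uses the chaperones PSMD5, PSMD9 and PSMD10, which hold pairs of ATPases. PSMD9 lay between 9.09 and 10.7 CPM in DMSO (median 9.42) and between 10.4 and 11.9 in PBKi (median 11.2), with a small overlap (log2 fold change 0.22, adjusted p = 0.0163). PSMD10, also known as gankyrin, lay between 88.2 and 120.1 CPM in DMSO (median 100.2) and between 104.2 and 125.5 in PBKi (median 118.1). Its log2 fold change was 0.19 (adjusted p = 0.0457), and the call was lost when any of 7 libraries was left out. PSMD5 showed 0.01 (adjusted p = 0.865).

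Core assembly begins on the chaperone pairs PSMG1 with PSMG2 and PSMG3 with PSMG4, which help to build the alpha ring, and POMP then guides the beta subunits. PSMG2 fell. It lay between 86.4 and 113.1 CPM in DMSO (median 93.1) and between 67.1 and 78.4 in PBKi (median 76), with every PBKi library below every DMSO library (log2 fold change -0.37, standard error 0.068, adjusted p = 0.000351). The call was made from replicates 1 to 3 alone (-0.45) and from replicates 4 to 6 alone (-0.26) too. Its partner PSMG1 showed -0.13 (adjusted p = 0.142), and PSMG3 and PSMG4 showed -0.08 each. POMP, the core maturation factor, lay between 259.7 and 351.7 CPM in DMSO (median 291) and between 288.5 and 353.7 in PBKi (median 319.1), with a log2 fold change of 0.09 that was not called (adjusted p = 0.382, interval -0.06 to 0.24).

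Of the 5 genes of the alternative activators and the inhibitor PSMF1, 4 were called, 2 in each direction. Of all genes, 20.1% were called up and 21.5% down. PSME1 and PSME2 encode the alpha and beta subunits of PA28, an interferon-inducible activator of the core, and both fell. PSME1 lay between 57.9 and 76.5 CPM in DMSO (median 70.7) and between 52.5 and 65.2 in PBKi (median 60.1), with overlap, and changed by -0.21 on the log2 scale (adjusted p = 0.0356). PSME2 lay between 33 and 42.5 CPM in DMSO (median 38.2) and between 28.3 and 35.2 in PBKi (median 33.2), with a log2 fold change of -0.25 (adjusted p = 0.0154). The PSME1 call was lost when any of 7 libraries was left out and the PSME2 call without DMSO replicate 1 or 3. PSME2 has 6 annotated pseudogenes, which together averaged 0.521 CPM.

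In the other direction, PSME4, the nuclear activator PA200, rose (log2 fold change 0.19, adjusted p = 0.0285, lost when any of 5 libraries was left out), and so did PSMF1, the inhibitor PI31 (0.19, adjusted p = 0.0217). PSME3, the PA28 gamma subunit, showed 0.10 and was not called (adjusted p = 0.0764).

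Immunoproteasome catalytic subunits were low in these cells in both conditions. PSMB8 and PSMB9 are neighbours in the MHC class II region of chromosome 6 (GRCh37, chr6:32808494-32812456 on the minus strand and chr6:32811913-32827628 on the plus strand), and PSMB10 is on chromosome 16 (chr16:67968409-67970767, minus strand). Per kb of exon and within a library, PSMB8 was 0.248% ± 0.068 of the level of PSMB5 in DMSO and 0.386% ± 0.0676 in PBKi (SD, n = 6). PSMB9 was 0.0990% ± 0.0225 of PSMB6 in DMSO and 0.208% ± 0.0732 in PBKi. PSMB10 was much nearer to its counterpart, at 11.9% ± 2.07 of PSMB7 in DMSO and 10.4% ± 0.748 in PBKi. These percentages also depend on the exon lengths used. They were 3480 bases for PSMB8 and 1549 for PSMB5, 3338 for PSMB9 and 1447 for PSMB6, and 1626 for PSMB10 and 1788 for PSMB7.

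PSMB8 had 4 to 21 counts per library in DMSO and 13 to 26 in PBKi. It passed the count filter through the PBKi libraries, since 3 DMSO libraries reached 10 counts and all 6 PBKi libraries did, so its call is weak support for a rise. In CPM it lay between 0.336 and 1.01 in DMSO (median 0.699) and between 0.899 and 1.33 in PBKi (median 1.09). DMSO replicate 1 was the one DMSO library that reached the PBKi range. On the log2 scale the rise was 0.59 with a standard error of 0.21 (adjusted p = 0.0299), which was the largest of the 45 genes and also the least precise. The 7 immune markers summed to 0.623 to 1.12 CPM in DMSO and 0.751 to 1.48 CPM in PBKi, a level like that of PSMB8. Which cells the PSMB8 reads came from was not tested. The PSMB8 call was lost without any one of DMSO replicates 3 and 6 and PBKi replicates 3 and 6, without the low-count filter (adjusted p = 0.112), with DESeq2 (adjusted p = 0.0667) and with lanes 6 to 8 only (adjusted p = 0.0509). PSMB8 shares 17.3% of its exon bases with PSMB8-AS1, an antisense gene, and PSMB9, and without a stated strand setting reads of the antisense gene cannot be told apart from its own.

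PSMB9 had 2 to 8 counts per library in DMSO and 3 to 13 in PBKi, or 26 and 52 counts over all 6 libraries. It lay between 0.216 and 0.336 CPM in DMSO (median 0.258) and between 0.225 and 0.671 in PBKi (median 0.571), with PBKi replicate 1 inside the DMSO range and the other PBKi libraries above it. It had too few counts for the main test. Fitted without the filter, its log2 fold change was 0.91 (standard error 0.39, unadjusted p = 0.02 and adjusted p = 0.0896 from edgeR), which did not pass.

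PSMB10 lay between 11.6 and 18.7 CPM in DMSO (median 16.2) and between 13.5 and 15.3 in PBKi (median 14.6). The PBKi libraries fell inside the DMSO range, and the log2 fold change of -0.15 was not called (adjusted p = 0.228). The first 3 replicates alone gave -0.31, a call down (adjusted p = 0.0107 from edgeR), and the last 3 alone 0.07 (adjusted p = 0.761). It was also called down without DMSO replicate 6 (adjusted p = 0.0406).

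Transcript levels of each pair were compared within libraries as the difference of log2 CPM. The test ran over every way to split the 12 libraries into 6 and 6, with the 3 pairs adjusted together. Exchange of subunits in the particle was not measured. The PSMB8 to PSMB5 difference was -7.29 ± 0.362 in DMSO and -6.71 ± 0.227 in PBKi (SD, n = 6), higher by 0.58 in PBKi (two-sided exact permutation p = 0.00649, adjusted p = 0.0195). The PSMB9 to PSMB6 difference was -8.26 ± 0.245 in DMSO and -7.47 ± 0.495 in PBKi (SD, n = 6), higher by 0.79 (two-sided exact permutation p = 0.013, adjusted p = 0.0195). For PSMB10 to PSMB7 the change was -0.17 and did not pass (two-sided exact permutation p = 0.152, adjusted p = 0.152). The ranges of the groups overlapped in all 3 pairs. With the 3 lanes common to all libraries alone, neither of the first 2 pairs passed (0.44, adjusted permutation p = 0.0909, and 0.55, adjusted permutation p = 0.182).

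**Figure D4:**
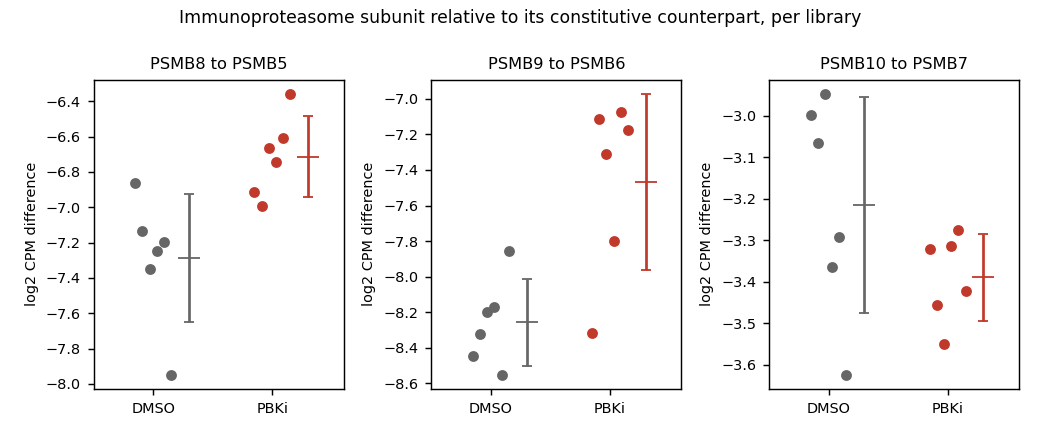
Log2 CPM of each immunoproteasome subunit minus that of its constitutive counterpart (y axis) in each library, with the mean and SD of the 6 DMSO (grey) and 6 PBKi (red) libraries. The PBKi points lie higher for PSMB8 and PSMB9, with overlap, and within the DMSO spread for PSMB10.

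The summed level of the 3 immunoproteasome genes did not follow PSMB8 and PSMB9, as PSMB10 made up most of it. The sum was 7.32 to 11.8 CPM per kb in DMSO (median 10.3) and 8.77 to 9.78 in PBKi (median 9.45). The 3 constitutive counterparts together stood between 226.3 and 259.7 CPM per kb in DMSO and between 230.7 and 247.9 in PBKi.

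These values stood beside large changes of other interferon-inducible genes in the same libraries. All 8 interferon-stimulated genes of the list were called up, led by IFIT2 and IFIT3, which encode antiviral effectors. IFIT2 rose from 0.557 ± 0.17 to 72.3 ± 5.74 CPM (SD, n = 6, log2 fold change 6.97), and IFIT3 from 0.283 ± 0.181 to 19.8 ± 3.79 CPM (SD, n = 6, log2 fold change 6.07). Of 10 genes of MHC class I antigen processing, 7 were called up (20.1% of all genes were) and none down, led by NLRC5, the transactivator of MHC class I genes (log2 fold change 2.44), and B2M, the class I light chain (1.12). NLRC5 is known to act on PSMB9 and TAP1 as well, and TAP1, the peptide transporter gene beside PSMB9, named after its values were seen, rose by 0.40 on the log2 scale. Over the same contrast the 2 tested immunoproteasome genes had 0.59 and -0.15, and the PA28 pair -0.21 and -0.25.

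**Figure D5:**
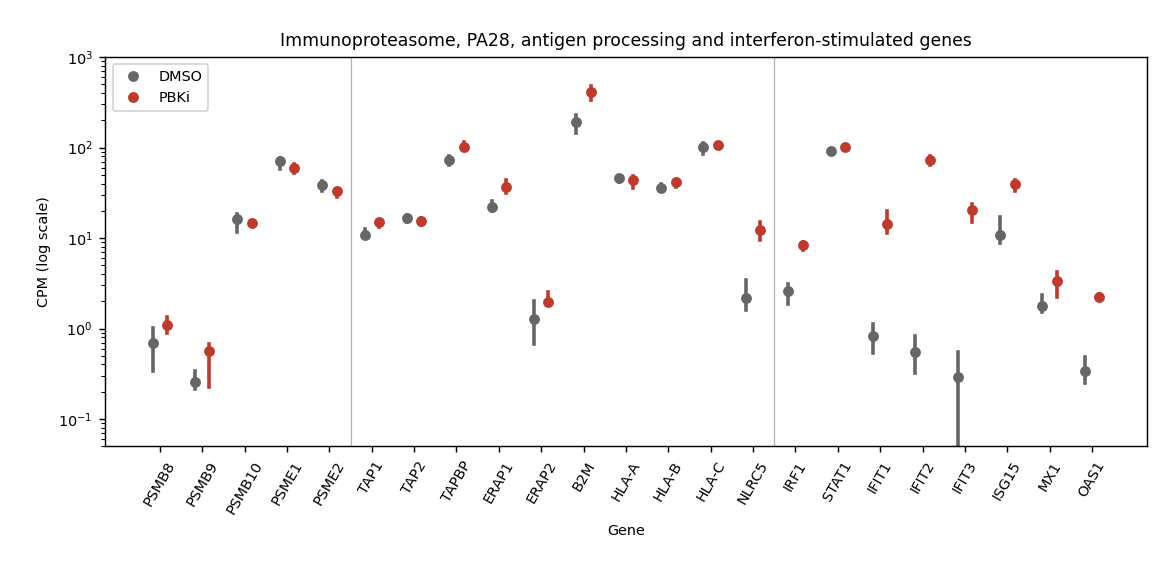
CPM (y axis, log scale) of the immunoproteasome and PA28 genes, 10 antigen processing genes and 8 interferon-stimulated genes, with medians as points and ranges over 6 libraries as bars. IFIT2 and IFIT3 are the furthest apart between DMSO (grey) and PBKi (red), the PA28 and PSMB10 bars lie side by side, and the IFIT3 bar in DMSO runs off the axis because 1 library was at 0.

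Promoter sequences were set beside these changes, since PSMB9, PSMB10 and the PA28 genes are known interferon targets and many constitutive subunits are known targets of NFE2L1, which acts through the antioxidant response element. RefSeq windows of 300 bases (GRCh38.p14, 250 before the start site and 50 after) were matched for 43 of the 49 genes. PSMA7, PSMB1, PSMB6, PSMB7, PSMD4 and PSMG3 had no matched window. The antioxidant response element core TGACNNNGC, on either strand, was found for 15 of 43 genes (34.9%), against 16.1% of 27305 genes with a window. The interferon-stimulated response element core, GAAA repeated after a gap of 2 bases, was found for 7 of 43 (16.3%), against 4.38%. The gamma-activated site TTCNNNGAA was found for 8 (18.6%, against 9.38%) and the CCAAT box for 20 (46.5%, against 39.7%). A match is of letters only and is no evidence of binding.

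The stretches of 250 bases before the start site are shown for some of the called genes and for the interferon-inducible subunits, chosen with the matches known, with matches to either of the first 2 motifs in capitals. PSMB8, shown for both of its windows, and PSMD8, the genes with the largest rises, hold neither motif in these stretches, and a second window of PSMG2, not shown, holds none either. The same letters GAAAGCGAAA lie close to the start sites of PSMB10 and PSME2. PSMD9 holds 2 antioxidant response element cores, PSMB9, PSME1, PSME2, PSMD12 and PSMG2 hold 1 each, and those of PSMB9 and the first of PSMD9 read on the opposite strand.
PSMB8, chr6:32844680-32844929 (minus strand): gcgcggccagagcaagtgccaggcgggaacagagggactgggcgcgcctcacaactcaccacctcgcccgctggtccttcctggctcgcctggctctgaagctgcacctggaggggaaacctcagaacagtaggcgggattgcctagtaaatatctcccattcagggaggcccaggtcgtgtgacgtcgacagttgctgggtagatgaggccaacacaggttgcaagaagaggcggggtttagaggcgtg
PSMB8, chr6:32844048-32844297 (minus strand): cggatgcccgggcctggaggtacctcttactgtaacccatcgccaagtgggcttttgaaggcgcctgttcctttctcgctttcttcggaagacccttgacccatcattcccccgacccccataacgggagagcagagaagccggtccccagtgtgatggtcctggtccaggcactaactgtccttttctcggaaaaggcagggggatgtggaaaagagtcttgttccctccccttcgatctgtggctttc
PSMB9, chr6:32853942-32854191 (plus strand): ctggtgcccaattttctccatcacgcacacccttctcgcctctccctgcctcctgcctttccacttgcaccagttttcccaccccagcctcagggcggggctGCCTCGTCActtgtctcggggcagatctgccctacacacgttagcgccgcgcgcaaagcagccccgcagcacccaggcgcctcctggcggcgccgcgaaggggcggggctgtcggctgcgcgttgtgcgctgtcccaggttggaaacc
PSMB10, chr16:67936851-67937100 (minus strand): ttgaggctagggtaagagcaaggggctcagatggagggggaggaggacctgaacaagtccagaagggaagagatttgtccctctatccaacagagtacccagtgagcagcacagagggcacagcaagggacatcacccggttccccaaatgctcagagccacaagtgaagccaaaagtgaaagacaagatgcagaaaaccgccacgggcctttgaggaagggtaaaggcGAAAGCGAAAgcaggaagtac
PSME1, chr14:24135944-24136193 (plus strand): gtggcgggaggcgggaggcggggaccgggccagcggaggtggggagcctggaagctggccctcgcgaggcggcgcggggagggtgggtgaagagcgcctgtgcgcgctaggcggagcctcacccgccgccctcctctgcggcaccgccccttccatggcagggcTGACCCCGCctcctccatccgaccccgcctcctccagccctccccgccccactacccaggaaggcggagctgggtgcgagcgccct
PSME2, chr14:24146611-24146860 (minus strand): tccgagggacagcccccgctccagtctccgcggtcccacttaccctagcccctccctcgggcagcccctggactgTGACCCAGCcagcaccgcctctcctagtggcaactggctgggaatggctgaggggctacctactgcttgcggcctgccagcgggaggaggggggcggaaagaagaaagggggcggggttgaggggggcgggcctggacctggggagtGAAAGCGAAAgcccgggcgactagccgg
PSMD8, chr19:38374321-38374570 (plus strand): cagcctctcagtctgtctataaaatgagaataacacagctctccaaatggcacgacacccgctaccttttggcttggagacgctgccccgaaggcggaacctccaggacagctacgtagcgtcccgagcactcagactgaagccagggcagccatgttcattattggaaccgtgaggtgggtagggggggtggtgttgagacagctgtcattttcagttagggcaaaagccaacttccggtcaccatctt
PSMD9, chr12:121888540-121888789 (plus strand): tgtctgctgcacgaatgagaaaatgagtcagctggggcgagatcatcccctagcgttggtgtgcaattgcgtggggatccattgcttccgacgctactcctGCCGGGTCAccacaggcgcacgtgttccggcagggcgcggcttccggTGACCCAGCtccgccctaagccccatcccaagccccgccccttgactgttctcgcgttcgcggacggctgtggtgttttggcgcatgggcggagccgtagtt
PSMD12, chr17:67366578-67366827 (minus strand): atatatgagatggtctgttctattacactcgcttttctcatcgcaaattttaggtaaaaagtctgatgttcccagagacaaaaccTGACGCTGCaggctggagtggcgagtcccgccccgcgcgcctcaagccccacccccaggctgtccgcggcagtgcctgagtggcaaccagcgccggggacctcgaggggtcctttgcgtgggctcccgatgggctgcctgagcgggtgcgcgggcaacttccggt
PSMG2, chr18:12658488-12658737 (plus strand): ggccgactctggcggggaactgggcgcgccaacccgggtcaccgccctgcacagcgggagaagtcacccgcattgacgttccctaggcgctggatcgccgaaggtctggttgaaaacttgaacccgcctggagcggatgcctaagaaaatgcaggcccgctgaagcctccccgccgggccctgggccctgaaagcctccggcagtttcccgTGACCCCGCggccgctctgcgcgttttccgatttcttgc

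Genes of both directions held matches. All 10 genes called up and all 3 called down had a window. A match in any window of a gene counted. The antioxidant response element core was found for 4 of the 10 (PSMD9, PSMD12, PSMD1 and PSME4). It was also found for 3 of the 3 (PSME1, PSME2 and PSMG2, the last in 1 of its windows). The interferon element was found for 1 of the 10 (PSMB8, at its start site in 1 of its windows) and for 2 of the 3 (PSME1 and PSME2).

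Genes that work with the proteasome were read from fixed lists. Their counts are read against the 20.1% of all genes called up and the 21.5% called down. Of 8 genes of the NFE2L1 axis, which restores proteasome gene expression when proteasome activity falls, 4 were called up and none down. MAFG, a small partner of NFE2L1, rose from 36.1 ± 3.73 to 61.6 ± 5.69 CPM (SD, n = 6, log2 fold change 0.78), and NFE2L1 itself rose from 246 ± 34.3 to 362 ± 25.5 CPM (SD, n = 6, log2 fold change 0.56). Both were above every DMSO library in all 6 PBKi libraries. Of 11 proteasome-bound factors, 3 were called up and none down, a share near that of all genes, led by ZFAND5, a factor that stimulates the proteasome (0.38), and TXNL1, a thioredoxin-like protein of the regulatory particle (0.34). Of 5 shuttle factors that carry ubiquitinated proteins to the proteasome, UBQLN2 was called up (log2 fold change 0.33) and none down, again near the share of all genes.

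Many proteasome genes also differed between libraries numbered 1 to 3 and those numbered 4 to 6 within a condition, a split known from earlier results of these data and not given by the labels as a batch. In DMSO, 19 of the 45 tested genes had all of replicates 1 to 3 above all of replicates 4 to 6, against 13.5% of all genes, and 3 had them below, against 15.7%. In PBKi 15 genes had them above, against 10.5% of all genes, and 0 below, against 11.1%. Both conditions showed it for 11 genes. These were PSMA1 to PSMA5 of the alpha ring, PSMC1, PSMC6, PSMD14, PSMD10, PSMG1 and POMP. PSMA3, for instance, lay between 176.8 and 205.7 CPM in DMSO replicates 1 to 3, between 140 and 146 in DMSO replicates 4 to 6, and between 193.1 and 199.8 and between 161.8 and 166.1 in the same PBKi replicates. The cause was not tested.

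Within these sets the treatment changes held their sign for 35 of the 45 genes. From replicates 1 to 3 alone 19 were called (45.1% of all genes), and from replicates 4 to 6 alone 4 were called (17.1% of all genes), namely PSMD8, PSMD12, PSMD10 and PSMG2. PSMB8 showed 0.34 in the first set (adjusted p = 0.354) and 0.97 in the second (adjusted p = 0.0754). PSME1 showed -0.34 (adjusted p = 0.000729) and -0.05 (adjusted p = 0.749). Whether these changes differed between the sets was not tested.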

How the data were processed

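RNAseq of 6 DMSO and 6 PBKi libraries was analysed. The authors aligned single-end reads of 40 bases to GRCh37 with TopHat (2.0.4), counted them per gene with HTSeq-count (0.5.3p9) and deposited raw counts in 47 lane files, without normalisation, and used DESeq (1.10.1) for their own tests, per the submitters' processing notes and the paper's methods. Summary rows that name no gene held 34.5% to 37.1% of all rows' counts per library and were left out. Lanes were summed per library, and repeat lanes agreed within sampling noise. Symbols were found for 47098 of 54127 gene IDs. Exon lengths, exon overlaps and coordinates came from GENCODE 44 mapped to GRCh37, which may differ from the annotation used for counting. A minimum of 10 counts in 6 or more libraries was required, and genes were tested with the quasi-likelihood test of edgeR (4.0.16, R 4.3.3) with TMM factors and no covariate. The procedure was also run on simulated independent counts without a difference between replicate sets, so that run does not bear on the split seen here. Standard errors come from the fold change and the F statistic. Log2 CPM used a prior count of 2. Alternatives were DESeq2 (1.42.0), limma-voom (limma 3.58.1), RLE factors, other filters and thresholds, lanes 6 to 8, a replicate block, replicate sets and leaving out each library. 2 alternatives were added after seeing the data, namely leaving out PBKi replicates 3 and 6 and a covariate for replicates 1 to 3 against 4 to 6. Members and lists were chosen with earlier results of these data known. Named were the immunoproteasome subunits, their counterparts, POMP, the 5 largest called rises and falls, and the 2 largest called changes of each companion list, with other members by group. Some genes of these lists are not reported here.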

Additional observations from a re-analysis of the deposited data

Results flagged for a closer look

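Each of the 45 tested genes was examined in each condition, 90 groups of 6 libraries, for a highest or lowest library whose gap to its neighbour exceeded Dixon's 95% critical value, which chance exceeds in about 5% of groups. This was met by 2 groups. PSMA2, an alpha ring subunit, was at 12.98 CPM in DMSO replicate 5, with the other DMSO libraries between 17.54 and 19.38 CPM. Without that library PSMA2 was called down (adjusted p = 0.0134 from edgeR), and with all libraries it was not (adjusted p = 0.182). PSMG4, a core assembly chaperone, was at 22.84 CPM in PBKi replicate 1, with the other PBKi libraries between 19.2 and 20.38 CPM, and its call did not change without it.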

How the results depend on the processing

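Counts called up and down were 10 and 3. They were 11 and 4 with DESeq2, 11 and 3 with limma-voom, 10 and 3 with RLE factors, and 9 and 3 with lanes 6 to 8 only. Up calls were 6 with no low-count filter. Both counts moved with replicates 4 to 6 only (3 and 1), PBKi replicates 3 and 6 left out (3 and 1), adjusted p under 0.01 (3 and 1) and a log2 change of 0.5 or more in size (1 and 0). With replicates 1 to 3 only, 11 genes were called up and 8 down, and with a covariate for the 2 replicate sets 15 and 7. Leaving out 1 library gave 5 to 13 up and 1 to 7 down.

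Same-numbered libraries of the conditions correlated by 0.0887 to 0.299 in their deviations from the condition means, under the level set for pairing for 1 number, so the numbers were not taken as pairs, and 4 of 6 DMSO libraries correlated best with their own number. With the replicate block 15 genes were called up and 7 down. The PSMB8 and PSMB9 ratios kept 0.58 and 0.79 without passing (adjusted p = 0.0938 each, exact permutation within 6 pairs). Permutation within 6 pairs allows no unadjusted p below 0.03125. The PSMB9 ratio was at that limit (unadjusted permutation p = 0.0312) and the PSMB8 ratio was above it (unadjusted permutation p = 0.0625). A ratio alone at the limit cannot pass after adjustment, so no conclusion is drawn from the PSMB9 result within pairs.

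The ratio changes for PSMB8 to PSMB5 and PSMB9 to PSMB6 were 0.44 and 0.55 in lanes 6 to 8 only, 0.26 and 0.74 in replicates 1 to 3 only, and 0.89 and 0.84 in replicates 4 to 6 only, where 3 libraries against 3 allow no exact p below 0.1. Leaving out 1 library gave 0.44 to 0.66 and 0.71 to 0.96. For PSMB10 to PSMB7 it gave -0.26 to -0.12, and the first of these, without DMSO replicate 6, passed (adjusted permutation p = 0.0346). That ratio was 0.09 in replicates 4 to 6 only, and in these the log2 fold changes of PSMB10 (0.068) and PSMB7 (-0.023) also turned sign. Causes were not tested. Across 18 genes and 23 alternatives, 341 of 414 values kept their direction and side of the threshold, 62 no longer passed, 9 newly passed and 2 reversed. PSMB8 and PSMB9 rest on 2 to 26 counts per library, where counting error alone is large.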
